A study of Mus musculus with 6 samples.

Results

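Transcripts of 36 genes of epithelial junctions, polarity and simple keratins were measured in mouse epiblast stem cells, out of 52609 annotated genes in the deposited files. The genes were taken by symbol from GENCODE M21, and all annotated transcripts of each were summed. They comprised 5 genes of the adherens junction with the adhesion molecule EpCAM, 6 claudins, 7 other tight junction genes, 3 polarity genes, 6 desmosome genes, 4 simple keratins, and 5 genes of the epithelial surface, chiefly a protease and its inhibitors. Epiblast stem cells are primed pluripotent cells cultured from the epiblast, and here they were grown on inactivated mouse embryonic fibroblasts as feeder cells. Poly(A) RNA was sequenced in 3 libraries of cells given Activin A at 20 ng/mL and 3 libraries of cells without it. Both groups received FGF2 at 10 ng/mL, the Wnt secretion inhibitor IWP2 at 5 µM, and SB431542, an inhibitor of the Activin and TGF-beta type I receptors, at 2 µM. The question taken from the series title is how Activin A bears on the ectoderm fate of these cells.

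The labels leave several points unsettled. For replicate 1 without Activin A, the label of growth factors lists Activin A although its title and genotype entry do not, and the treatment text reads the same for all 6 samples. The series text speaks of 2 lines while the sample labels name none, so a difference between lines and the removal of Activin A cannot be told apart. The labels do not say that the libraries came from separate cultures, so p-values measure only how these samples spread, and that spread may be technical. The libraries held 9946521 to 16350923 estimated reads, and the shallowest, with Activin A replicate 3, stood apart from the other libraries of its group on the second principal component (14.7% of the variance).

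Epithelial cells are held together by junctions stacked along their sides. Tight junctions, built from claudins, occludin and the scaffold proteins of the zonula occludens, seal the space between cells near the apical surface. Adherens junctions join E-cadherin to actin through catenins, and desmosomes join cadherins of their own to keratin filaments through plakoglobin, plakophilins and desmoplakin. The epiblast is itself an epithelium, and its cells carry E-cadherin and EpCAM before they take up any germ layer fate.

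Claudins 3, 4, 6 and 7, EpCAM, E-cadherin, Crb3, matriptase and its inhibitors Spint1 and Spint2 were lower without Activin A, whereas keratins 8 and 19 and desmocollin 2 were higher. Values are TMM-normalised CPM, a read count scaled by library size, and a gene was called when its Benjamini-Hochberg adjusted p over all 15448 tested genes was at most 0.05 in edgeR's quasi-likelihood test. Of the 36 genes, 35 had enough reads to be tested, 17 fell, 13 rose and 5 were not called. This is 85.7% of the tested set, against 29.2% of all tested genes (15.2% lower and 14.0% higher), and against 31.3% of tested genes that averaged 10 CPM or more, a level that 31 of the 36 genes reached. The genes were chosen with earlier results of these data known. This and the further comparisons of the set with all tested genes are therefore a description and not a test. After removal of library trends with GC content and length, the split over all genes was 3935 higher and 2459 lower, against 2155 and 2350, and that of the set was 14 and 17.

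Of the 35 tested genes, 11 fell by at least 1.5-fold, against 7.06% of all tested genes, and 3 rose by as much, against 3.58%. The groups did not overlap for 31 of them, against 42.9% of all tested genes. The median log2 fold change, without minus with Activin A, was -0.24 in the set and 0.00 (0.0012) over all tested genes. In 14 of the 30 called genes the direction and the call held in each of 19 alternative analyses. These were Cdh1, Epcam, Cldn4, Cldn6, Cldn7, Marveld2, Crb3, St14, Spint1 and Spint2 among those that fell, and Ctnnd1, Dsc2, Krt8 and Krt19 among those that rose. In 12 of the other 16, calls were lost or turned in direction only with TPM or a transcript length offset. The TPM analyses also changed the test, to limma-trend, and on log2(TPM + 1) it called 10.1% of all tested genes against 29.2%. For Tjp3, F11r, Dsp, Pkp2 and Cd24a the call was lost only there and held with the length offset, which kept edgeR's test.

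**Figure D1:**
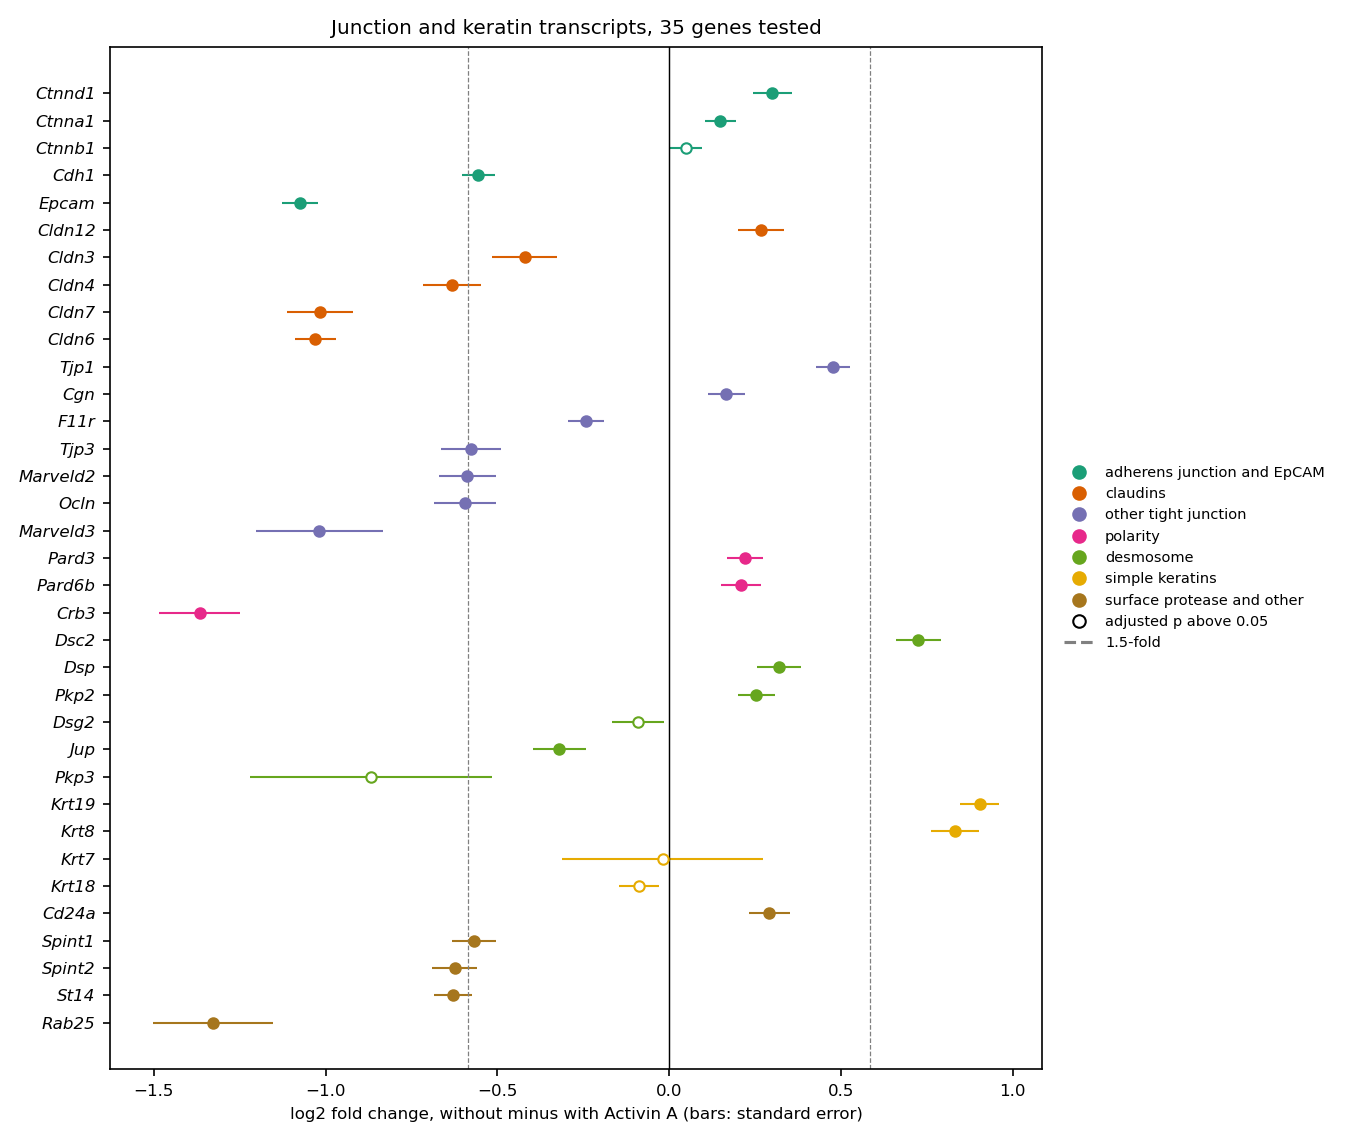
Log2 fold change without minus with Activin A for the 35 tested genes, ordered within their role groups; bars are standard errors, open points were not called, and dashed lines mark 1.5-fold. Claudins, tight junction membrane proteins and surface proteins lie mostly to the left, and Krt19, Krt8 and Dsc2 lie farthest to the right.

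Upstream sequences of the genes are shown because E-box elements in such regions are known binding sites of the ZEB and SNAI repressors of epithelial genes, and AACNGGTT is known as the core of the element bound by grainyhead factors. RefSeq starts on GRCm38.p6 were found for 25 of the 36 genes, and the 250 bases upstream of each start were searched on both strands. Cdh1, Marveld3 and St14, which fell, and Ctnna1, Dsc2, Pkp2, Krt19 and Cd24a, which rose, had no window. Cldn9, Dsg2 and Pkp3 had none either. The hexamer CAGGTG, which reads CACCTG on the other strand, stood in the windows of 15 of the 25 genes (60.0%), against 17.2% of 32851 mouse windows of the same length. It stood in 10 of 14 windows of genes that fell and in 3 of 8 windows of genes that rose. The RefSeq start lies away from that of the most abundant coding transcript by 148134 bases for Pard3 (rose, 3 matches), 1497 bases for Cldn7 (fell, 2 matches) and 1300 bases for Krt7 (not called, 1 match), and by at most 230 bases for the other 22 genes. Bases in an annotated exon of any gene were 250 for Dsp, 221 for Cldn7, 205 for Krt7 and 178 for Ctnnb1. They were 155 for Ocln, 140 for Krt8, 116 for Cldn6 and at most 109 for any other gene. The matches of Cldn6 and Krt8 lie in such exons, downstream of the GENCODE start. Those of Ocln, Cldn7, Krt7, Pard3 and Crb3 also lie downstream of the outermost GENCODE start of their gene. The Crb3 window, however, ends at the start of its most abundant coding transcript. The counts are therefore of windows with a match, and not of sites upstream of the main transcript. AACNGGTT, also sought on both strands, stood in 2 of the 25, those of Cgn and Rab25, against 1.79% of all windows; the motifs do not overlap. A match describes the letters only, and binding was not measured here. The windows below are those of Epcam (chr17:87635729-87635978, plus strand), Cldn4 (chr5:134946935-134947184, minus strand) and Spint2 (chr7:29281978-29282227, minus strand), 3 genes that fell. Next come Pard6b (chr2:168080754-168081003, plus strand), which rose, and Cldn3 (chr5:134985964-134986213, plus strand), which fell and has no match. Sequences are read 5′ to 3′ along the gene's strand, with capitals marking CAGGTG or CACCTG.
Epcam: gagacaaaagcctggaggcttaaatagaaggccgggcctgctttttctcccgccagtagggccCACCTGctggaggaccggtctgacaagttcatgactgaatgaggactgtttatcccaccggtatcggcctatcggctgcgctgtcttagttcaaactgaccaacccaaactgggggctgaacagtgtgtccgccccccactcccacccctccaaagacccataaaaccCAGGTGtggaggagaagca
Cldn4: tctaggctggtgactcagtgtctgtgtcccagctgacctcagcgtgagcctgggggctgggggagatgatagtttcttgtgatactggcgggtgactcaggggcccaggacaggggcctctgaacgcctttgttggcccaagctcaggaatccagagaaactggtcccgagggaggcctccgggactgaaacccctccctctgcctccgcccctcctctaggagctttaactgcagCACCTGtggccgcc
Spint2: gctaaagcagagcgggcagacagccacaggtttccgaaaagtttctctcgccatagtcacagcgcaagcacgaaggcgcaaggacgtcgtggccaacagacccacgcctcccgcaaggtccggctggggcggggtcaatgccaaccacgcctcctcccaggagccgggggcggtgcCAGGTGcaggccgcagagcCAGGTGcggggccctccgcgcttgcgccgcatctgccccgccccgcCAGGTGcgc
Pard6b: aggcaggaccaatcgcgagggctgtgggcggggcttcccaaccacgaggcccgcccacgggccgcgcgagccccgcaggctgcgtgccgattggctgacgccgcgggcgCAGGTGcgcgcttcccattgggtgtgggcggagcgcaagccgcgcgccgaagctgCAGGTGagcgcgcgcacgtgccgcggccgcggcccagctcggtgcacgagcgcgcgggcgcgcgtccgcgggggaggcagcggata
Cldn3: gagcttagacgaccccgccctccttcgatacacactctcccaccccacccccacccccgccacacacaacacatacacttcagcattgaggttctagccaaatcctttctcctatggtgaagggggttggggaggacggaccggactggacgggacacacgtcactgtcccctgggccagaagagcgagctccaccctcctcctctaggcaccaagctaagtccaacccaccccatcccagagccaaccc

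In the adherens junction group, the membrane proteins fell and the catenins did not. Of the 5 genes, Cdh1 and Epcam fell, Ctnna1 and Ctnnd1 rose, and Ctnnb1 was not called. Epcam (ENSMUSG00000045394.9, GRCm38 chromosome 17, 87635979 to 87651129) encodes a homophilic adhesion molecule of epithelia and of pluripotent cells. Its CPM was 244, 267 and 269.8 with Activin A and 122, 125 and 123 without. The groups lay far apart for this gene, whose upstream window holds the hexamer at 2 places, a 2.11-fold fall (log2 fold change -1.08, SE 0.05, edgeR adjusted p = 1.39e-09). Cdh1, which encodes E-cadherin (ENSMUSG00000000303.12, chromosome 8, 106603351 to 106670246), had 139.8, 139 and 140.4 CPM with and 94.0, 95.2 and 95.85 CPM without. Replicates differed by little and the groups did not overlap, a 1.47-fold fall (edgeR adjusted p = 6.33e-07).

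The catenins link the cadherin tail to actin. Ctnnb1, which encodes beta-catenin, also a Wnt signal transducer, had the highest level per length of the set, with a TPM of 596 ± 75.8 with and 633 ± 13.9 without Activin A (SD, n = 3 each). Its CPM was 1100, 1077 and 1127 with and 1134, 1114 and 1171 without. The groups overlapped, and the 95% interval of the log2 fold change ran from -0.05 to 0.15 (edgeR adjusted p = 0.479). It was called higher after removal of the GC and length trend (log2 fold change 0.11, adjusted p = 0.00731). Only 30.5% and 33.8% of the Ctnnb1 TPM lay in transcripts annotated as coding, and 14.6% of its exonic bases overlap Ulk4 on the other strand. Ctnna1, alpha-catenin, was 358 to 363 CPM with and 390.2 to 408 CPM without, a 1.11-fold rise (edgeR adjusted p = 0.0231). Leaving out with Activin A replicate 1, or any 1 library without Activin A, ended the call of Ctnna1, with adjusted p values of 0.0533 to 0.123.

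Ctnnd1, which encodes p120-catenin, a protein that holds cadherins at the membrane, was 215 to 244 CPM with and 278 to 301 CPM without Activin A. It rose 1.23-fold with no overlap between the groups (edgeR adjusted p = 0.00103). The split of its reads is uncertain, because the read-through gene Gm28635 covers 61.2% of its exonic bases on the same strand. Gm28635 was assigned 1, 227 and 1 reads with Activin A and 504, 298 and 463 reads without. The summed CPM of both genes was 238 ± 6.09 with and 316 ± 4.56 without, so the sum was also higher in each library without Activin A.

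Of the 6 claudins, the 4-span membrane proteins that form tight junction strands, 4 fell, Cldn12 rose, and Cldn9 had too few reads to test (1 to 5 per library). Cldn6 (ENSMUSG00000023906.3, chromosome 17, 23679249 to 23682446) is known as a marker of pluripotent and early embryonic epithelium. It had 79.0, 84.0 and 75.6 CPM with Activin A and 38.55, 38.5 and 40.0 CPM without. The values without were tightly grouped and far below those with, a 2.04-fold fall (log2 fold change -1.03, SE 0.06, edgeR adjusted p = 9.56e-09). Cldn9, its neighbour 137 bases away on the other strand, showed no such level: its reads were near 0 in every library.

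Cldn7, a claudin that binds EpCAM, had the highest TPM of the claudins with Activin A. Of that TPM, 70.8% lay in the 373-base transcript Cldn7-205 (64.0 to 145.5 reads), while the longer Cldn7-201 (1335 bases) had 11.3 to 13.5 TPM, below Cldn6 and Cldn3. Its CPM was 33.55, 36.4 and 28.3 with and 16.9, 17.25 and 14.7 without. The lowest library with Activin A, replicate 3, still lay well above those without, and the fall was 2.02-fold (log2 fold change -1.02, SE 0.10, edgeR adjusted p = 1.655e-06). Cldn4, which tightens the barrier to cations, had 24.8, 22.0 and 21.45 CPM with and 14.7, 14.6 and 14.95 CPM without. These groups were also apart, a 1.55-fold fall (log2 fold change -0.63, SE 0.08, edgeR adjusted p = 4.97e-05).

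Cldn3, a barrier-forming claudin 39279 bases from Cldn4 on chromosome 5, had 52.1, 57.2 and 42.7 CPM with Activin A and 40.6, 34.9 and 38.95 CPM without. The lowest value with lay close above the highest without, and the fall was 1.34-fold (edgeR adjusted p = 0.00432), with an adjusted p of 0.0607 under a transcript length offset. Cldn12, a claudin that lacks the PDZ-binding end of most family members, had 78.2, 79.6 and 92.8 CPM with and 104, 97.8 and 98.5 CPM without. It rose 1.204-fold (edgeR adjusted p = 0.00693), and the call was lost when replicate 1 of either group was left out (adjusted p = 0.0510 in each case) and on TPM (adjusted p = 0.501).

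The summed TPM of the claudins was 158.6, 153.5 and 153.8 with Activin A and 98.0, 101.2 and 94.4 without, so the total was lower in each library without it. Within that total, Cldn7 held 35.5% ± 2.88 with and 25.1% ± 0.887 without (SD, n = 3 each), and Cldn12 held 13.4% ± 3.66 and 24.5% ± 2.53; the share of Cldn7 rests mostly on its short transcript. Each of these shares separated the groups fully, with an exact two-sided permutation p of 0.1, the smallest that 3 against 3 allows. Cldn4 held 5.81% and 6.07% and overlapped between the groups (exact p = 0.4).

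**Figure D2:**
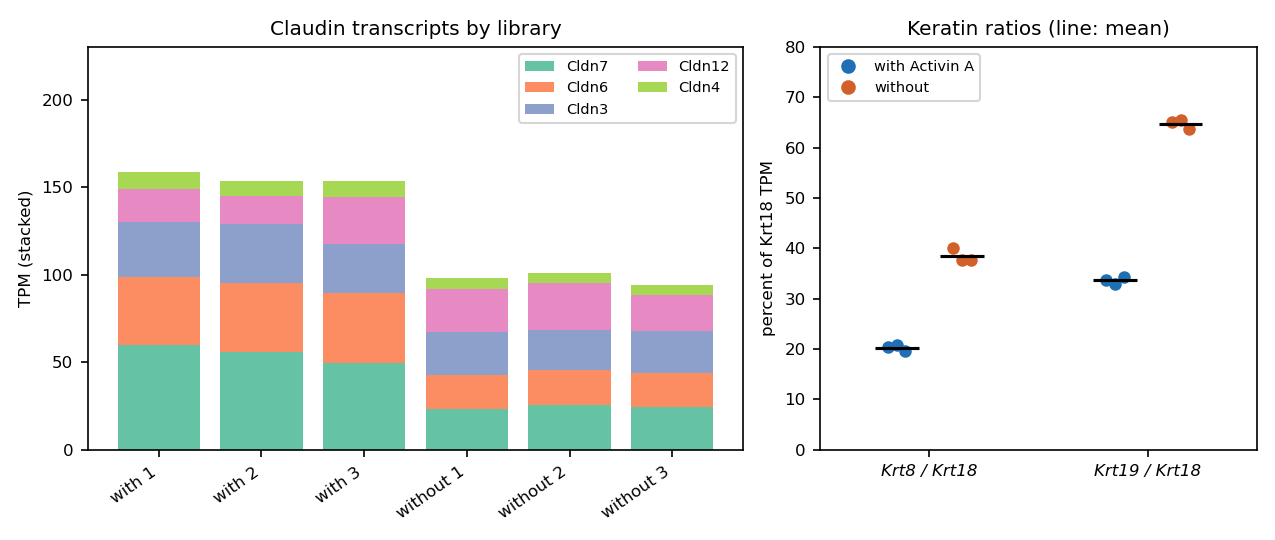
Left, TPM of 5 claudins stacked for each library; right, Krt8 and Krt19 TPM as a percent of Krt18 TPM in each library, with the group means as lines. The sum over the 6 claudins, of which Cldn9 is too low to draw, is 153.5 or more with Activin A and 101.2 or less without, and both keratin ratios are higher in every library without Activin A.

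Among the other tight junction genes, 5 fell and 2 rose. Those that fell encode the membrane proteins Ocln, Marveld2, Marveld3 and F11r and the scaffold Tjp3, and those that rose encode the scaffold Tjp1 and the cytoplasmic adaptor Cgn. Ocln, which encodes occludin, had 17.7, 17.6 and 19.25 CPM with Activin A and 11.05, 12.5 and 12.3 CPM without. The groups were apart on this scale, a 1.51-fold fall (log2 fold change -0.59, SE 0.09, edgeR adjusted p = 1.62e-04). On TPM the means were 6.002 ± 2.28 and 5.57 ± 2.18 and the call was lost (limma adjusted p = 0.885). The short transcript Ocln-204 (390 bases) held 0 to 43.2% of Ocln TPM in single libraries with Activin A and 37.7% to 61.2% in those without.

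Marveld2 encodes tricellulin, which seals the points where 3 cells meet, and lies 43238 bases from Ocln on chromosome 13. It had 25.0, 23.9 and 23.7 CPM with Activin A and 17.7, 15.4 and 15.25 CPM without. Its groups were apart, a 1.502-fold fall (log2 fold change -0.59, SE 0.08, edgeR adjusted p = 8.40e-05). Marveld3, another occludin relative, had 23 to 64 reads a library, or 3.91, 3.37 and 3.79 CPM with and 1.98, 1.75 and 1.72 CPM without. It fell 2.02-fold (log2 fold change -1.02, SE 0.19, edgeR adjusted p = 7.79e-04), a call that was lost on TPM (limma adjusted p = 0.238).

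F11r encodes the junctional adhesion molecule JAM-A and had the highest TPM of these 7 genes over all libraries. It had 112, 117 and 116 CPM with Activin A and 94.0, 96.95 and 101 CPM without. The groups lay close but apart, a 1.183-fold fall (edgeR adjusted p = 0.00280). Tjp3, which encodes ZO-3, was 26.3 to 32.9 CPM with and 20.5 to 20.9 CPM without, a 1.49-fold fall (edgeR adjusted p = 1.49e-04). Both calls were lost on TPM, with limma adjusted p values of 0.0979 and 0.0818. On TPM the groups of each gene still did not overlap, and both calls held with the length offset.

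Tjp1, which encodes ZO-1, the scaffold that ties tight junctions to actin, moved the other way. It was 196 to 214 CPM with Activin A and 282 to 293 CPM without, a 1.39-fold rise (log2 fold change 0.48, SE 0.05, edgeR adjusted p = 3.98e-06). The groups were well apart on CPM, but the call was lost on TPM (limma adjusted p = 0.123). Cgn, which encodes cingulin, was 93.7 to 103 CPM with and 111 to 114 CPM without, a 1.12-fold rise (edgeR adjusted p = 0.0329). Leaving out any 1 library without Activin A ended the Cgn call, with adjusted p values of 0.0851 to 0.118, and 21.6% of its 31-base words also occur in other genes, chiefly BC021767 (10 to 18 reads a library).

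Of the 3 polarity genes, Crb3 fell and Pard3 and Pard6b rose. Crb3 (ENSMUSG00000044279.15, chromosome 17, 57059105 to 57065918) encodes the Crumbs protein of epithelial apical membranes. It had 16.8, 18.7 and 14.5 CPM with Activin A and 7.23, 6.33 and 5.91 CPM without. Every library with was above every library without, and the 2.58-fold fall had the greatest fold of the 35 tested genes (log2 fold change -1.37, SE 0.12, edgeR adjusted p = 6.47e-07). Pard3, the PAR-3 scaffold that marks the apical boundary, had 80.1, 79.8 and 76.5 CPM with and 89.2, 92.5 and 93.98 CPM without. It rose 1.17-fold on counts (edgeR adjusted p = 0.00573), but with a transcript length offset its log2 fold change was -0.0032. The 307-base Pard3-205, of 13.7 to 27.9 reads a library, held 52.1% of Pard3 TPM with Activin A and 34.8% without. Pard6b, a PAR-3 partner whose upstream window holds 2 CAGGTG hexamers, was 56.9 to 64.0 CPM with and 70.1 to 70.9 CPM without, a 1.16-fold rise (edgeR adjusted p = 0.0144). Leaving out any 1 library without Activin A ended the Pard6b call (adjusted p 0.0540 to 0.0624).

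**Figure D3:**
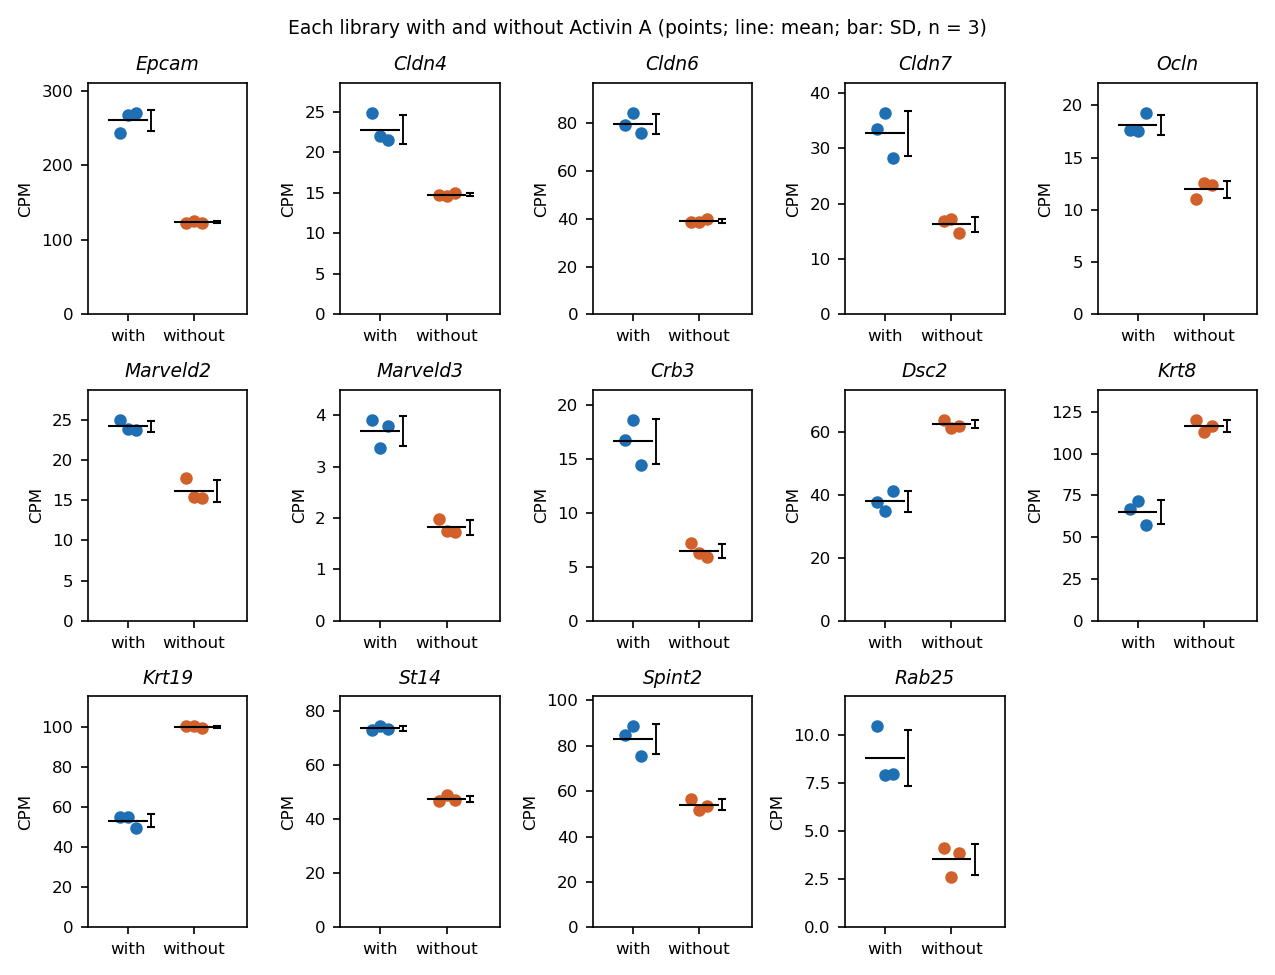
CPM of the 14 genes called with at least a 1.5-fold change, 1 panel a gene, with a point for each library, a line for the mean and a bar for the SD (n = 3 each). In every panel the points with and without Activin A are fully separated; 11 genes are lower without and Dsc2, Krt8 and Krt19 are higher.

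Of the 6 desmosome genes, 3 rose, 1 fell and 2 were not called. Dsc2, which encodes the desmosomal cadherin desmocollin 2, had 37.65, 34.8 and 41.3 CPM with Activin A and 63.85, 61.4 and 62.0 CPM without. The groups were far apart, a 1.65-fold rise (log2 fold change 0.73, SE 0.07, edgeR adjusted p = 1.09e-06). Dsg2, the desmoglein partner gene 498519 bases away on chromosome 18, was 20.25 to 22.4 CPM with and 19.7 to 20.5 CPM without. Its groups overlapped, and the interval of the log2 fold change was -0.25 to 0.07 (edgeR adjusted p = 0.415).

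Dsp, which encodes desmoplakin, the link from the plaque to keratin, was 45.9 to 51.9 CPM with Activin A and 60.5 to 65.3 CPM without, a 1.25-fold rise (edgeR adjusted p = 0.00156). Pkp2, a plakophilin of simple epithelia and heart, was 56.8 to 58.6 CPM with and 67.6 to 69.5 CPM without, a 1.19-fold rise (edgeR adjusted p = 0.00242). Both calls were lost on TPM, with limma adjusted p values of 0.0734 and 0.113. The TPM groups still did not overlap for either gene, and both calls held with the length offset. Pkp3, another plakophilin, had 6 to 22 reads a library and was not called (log2 fold change -0.87, interval -1.62 to -0.11, edgeR adjusted p = 0.0802). It was called lower (adjusted p = 0.0394) when the library without Activin A replicate 1 was left out.

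Jup, which encodes plakoglobin, shared by desmosomes and adherens junctions, had 125, 118 and 97.2 CPM with Activin A and 92.2, 90.9 and 90.9 CPM without. The groups were apart but near each other at replicate 3, and counts fell 1.25-fold (edgeR adjusted p = 0.00558). On TPM the direction was opposite, with 33.8 ± 4.29 with and 37.1 ± 1.27 without, a difference that was not called (log2(TPM + 1) difference 0.14, limma adjusted p = 0.465). The coding transcript Jup-201 (3205 bases) had 24.9, 22.1 and 20.5 TPM with and 16.8, 18.2 and 15.2 TPM without, so it was lower in each library without Activin A. The noncoding transcript Jup-205 (502 bases) had 10.97, 3.26 and 10.7 TPM with and 15.5, 15.3 and 19.15 TPM without, from 19.1 to 104.5 estimated reads. Jup-205 was thus higher in each library without Activin A, where Jup-201 was lower.

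**Figure D4:**
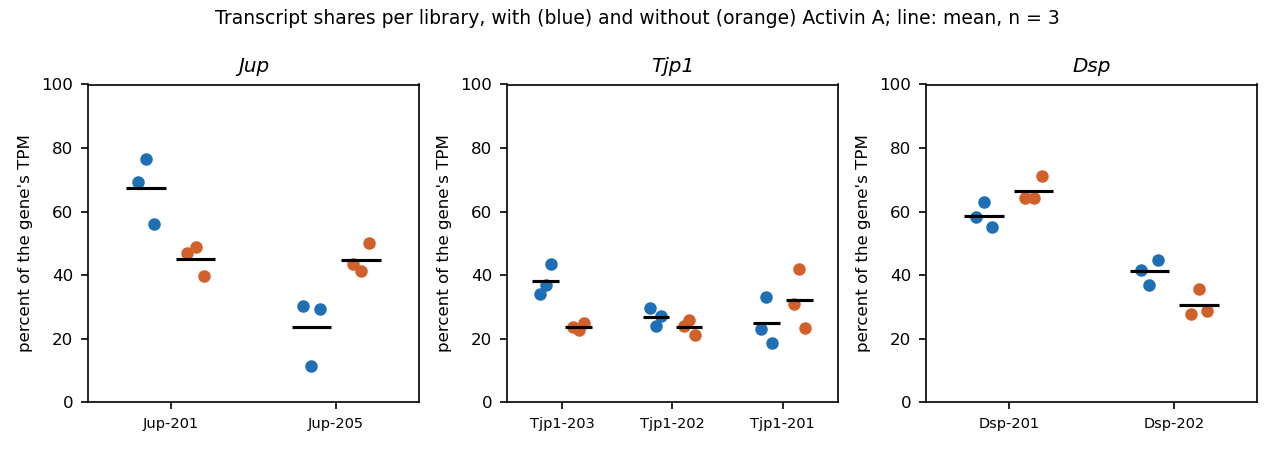
Share of each gene's summed TPM held by single transcripts of Jup, Tjp1 and Dsp in each library, with Activin A in blue and without in orange, and group means as lines (n = 3 each). Jup-201 holds 67.4% with and 45.3% without Activin A, Jup-205 holds 23.7% and 44.9%, and Tjp1-203 and Dsp-202 hold smaller shares without Activin A.

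Transcript shares differed by at least 10 percentage points in 8 of the 36 genes (Cldn12, Crb3, Dsp, Jup, Marveld2, Marveld3, Ocln and Tjp1), counting transcripts that were at 20% or more alongside another such transcript. Jup-201 held 67.4% ± 10.3 of Jup TPM with Activin A and 45.3% ± 4.86 without, and Marveld2-202 held 41.4% ± 14.3 and 12.9% ± 5.40 of Marveld2 TPM. Tjp1-203, annotated as a processed transcript without a coding frame, held 38.2% ± 4.76 and 23.8% ± 0.965 of Tjp1 TPM, and Dsp-202 held 41.2% ± 3.91 and 30.8% ± 4.28 of Dsp TPM (SD, n = 3 each). These 4 shares did not overlap between the groups, with an exact two-sided permutation p of 0.1 each, the smallest possible. The shares of the other genes overlapped, as for Crb3-202, which held 27.8% to 55.65% of Crb3 TPM with Activin A and from near 0 to 71.25% without. The deposited values carry no uncertainty for the division of reads between isoforms.

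Of the simple keratins, the filament proteins of single-layered epithelia, Krt8 and Krt19 rose and Krt18 and Krt7 were not called. Krt8 (ENSMUSG00000049382.10, chromosome 15, 101996698 to 102004482) encodes the type II partner in the filament. It had 66.6, 71.7 and 57.5 CPM with Activin A and 120.3, 113 and 116.5 CPM without. The groups were far apart, a 1.78-fold rise (log2 fold change 0.83, SE 0.07, edgeR adjusted p = 4.59e-07). Of its 31-base words 36% also occur in other genes, chiefly a processed copy, Krt8-ps, which was assigned at most 2 reads in any library. Krt19 (ENSMUSG00000020911.14, chromosome 11, 100140810 to 100148665) encodes a small type I keratin. It had 55.1, 54.8 and 49.6 CPM with and 100.2, 100.2 and 99.2 CPM without. The values without were nearly equal, and the rise was 1.87-fold (log2 fold change 0.90, SE 0.06, edgeR adjusted p = 2.09e-08).

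Krt18, the type I keratin that pairs with keratin 8 and lies 23697 bases from it, was the most abundant keratin per length. It had 228, 239.8 and 203 CPM with Activin A and 209, 208 and 215 CPM without. The groups overlapped, and the interval of the log2 fold change was -0.21 to 0.04 (edgeR adjusted p = 0.287). The low library with Activin A was replicate 3, and without it Krt18 was called lower, at a log2 fold change of -0.15 (adjusted p = 0.00147). Krt7, a keratin of ducts and trophoblast, had 11 to 40 reads a library and an interval from -0.64 to 0.61 (edgeR adjusted p = 0.974).

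Per length, Krt8 stood at 20.3% ± 0.570 of Krt18 TPM with Activin A and 38.5% ± 1.30 without, and Krt19 at 33.7% ± 0.646 and 64.8% ± 0.964 (SD, n = 3 each). Both ratios were higher in every library without Activin A than in any library with it (exact two-sided permutation p = 0.1 each, the smallest possible). Summed TPM of the 4 keratins was 175.3 to 183.7 with Activin A and 224 to 231.8 without. Of the Krt19 TPM, 53.4% with and 55.4% without lay in Krt19-203, an 823-base transcript annotated without a coding frame. The coding Krt19-201 had 15.5, 14.1 and 15.6 TPM with Activin A and 29.3, 30.8 and 28.2 TPM without. The Krt19 ratio and the keratin sum therefore include a large noncoding part.

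The surface genes were led by St14, which encodes matriptase, a membrane serine protease of epithelia, and by Spint1 and Spint2, which encode its Kunitz-type inhibitors HAI-1 and HAI-2. St14 had 72.8, 74.3 and 73.2 CPM with Activin A and 46.6, 48.7 and 47.2 CPM without. Both groups were tight and apart, a 1.55-fold fall (log2 fold change -0.63, SE 0.05, edgeR adjusted p = 6.32e-07). Spint2, whose upstream window holds 3 CAGGTG hexamers, had 84.7, 88.6 and 75.6 CPM with and 56.55, 51.7 and 53.7 CPM without. It fell 1.54-fold (log2 fold change -0.62, SE 0.07, edgeR adjusted p = 5.15e-06). Spint1 was 66.9 to 75.0 CPM with and 45.7 to 49.5 CPM without, a 1.48-fold fall (edgeR adjusted p = 8.25e-06).

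The inhibitors were also set against the protease within each library. Spint1 CPM was 95.3% ± 5.05 of St14 CPM with Activin A and 99.6% ± 6.35 without (exact two-sided permutation p = 0.4), and Spint2 CPM was 113% ± 8.55 and 113.8% ± 7.62 (exact p = 0.9; SD, n = 3 each). These ratios overlapped between the groups, which at 3 libraries each does not show that they were equal. Rab25, a small GTPase of apical recycling in epithelia, had 10.45, 7.90 and 7.98 CPM with and 4.11, 2.63 and 3.89 CPM without, from 39 to 171 reads. It fell 2.51-fold (log2 fold change -1.33, SE 0.17, edgeR adjusted p = 4.37e-05), and the call was lost on TPM (limma adjusted p = 0.131). Of the Rab25 TPM, 68.2% with and 73.4% without lay in Rab25-203, a 301-base retained intron of 4.04 to 33.45 reads. The coding Rab25-201 had 5.71, 4.415 and 5.605 TPM with Activin A and 2.48, 1.825 and 1.90 TPM without. Cd24a, a small glycosylated surface protein with the highest TPM of this group over all libraries, had 113, 115 and 130.2 CPM with and 141, 148 and 148 CPM without. It rose 1.22-fold with no overlap (edgeR adjusted p = 0.00178), a call that was lost on TPM (limma adjusted p = 0.0848). The TPM groups of Cd24a did not overlap either, and the call held with the length offset.

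**Figure D5:**
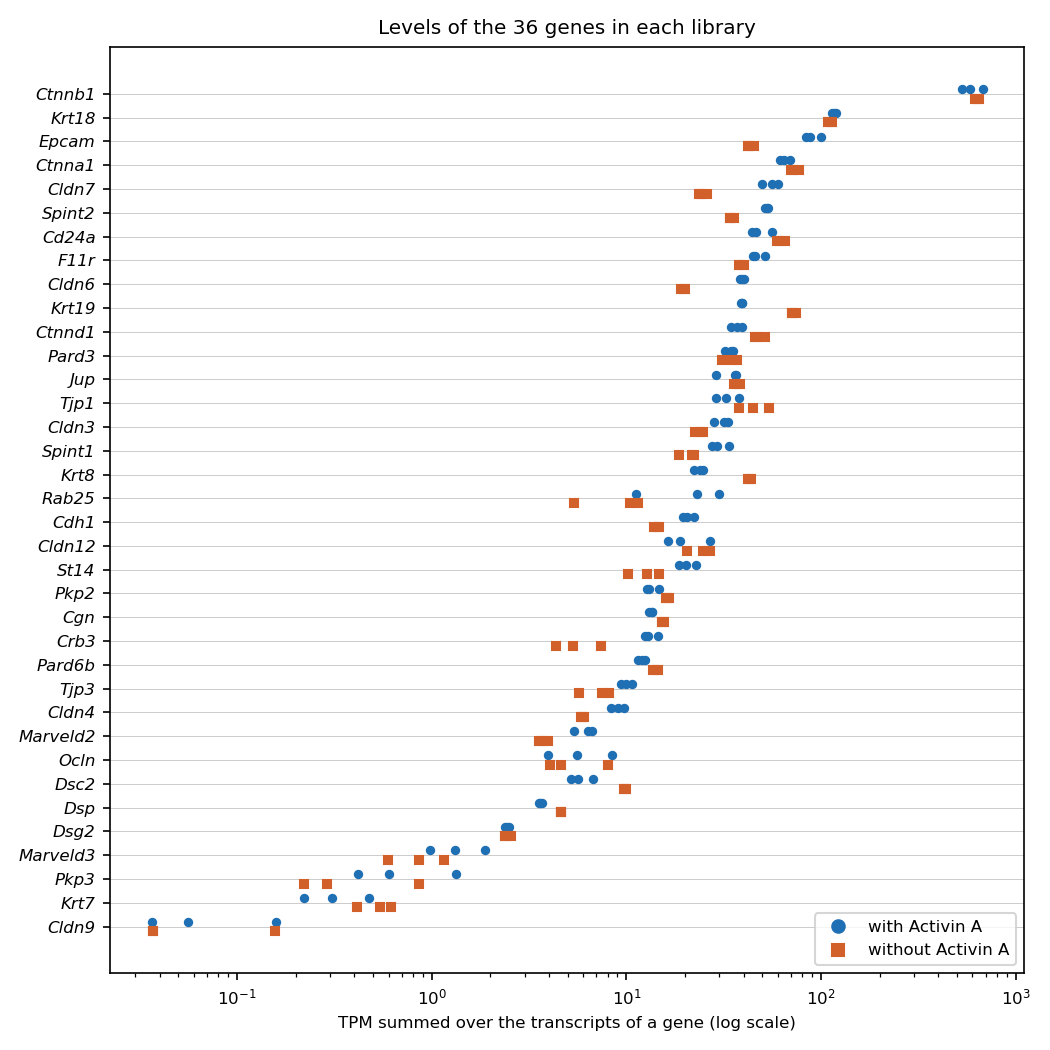
TPM of the 36 genes in each library on a log axis, ordered by the mean with Activin A (circles with, squares without Activin A). Ctnnb1 is highest, with a mean of 596 TPM with Activin A, followed by Krt18 and Epcam with Activin A, and Cldn9, at under 0.2 TPM, is lowest.

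On TPM, which allows levels to be compared between genes, Ctnnb1 was followed with Activin A by Krt18 (117 ± 2.81), Epcam (90.5 ± 8.67), Ctnna1 (65.0 ± 3.98), Cldn7 (55.1 ± 5.23) and Spint2 (52.7 ± 1.12; SD, n = 3 each). Spint2 and Cldn7 did not differ beyond their spread. Without Activin A the order after Ctnnb1 was Krt18 (111.5 ± 2.43), Ctnna1 (72.9 ± 3.53), Krt19 (72.25 ± 2.00), Cd24a (62.2 ± 2.96) and Ctnnd1 (48.0 ± 3.21), and Ctnna1 and Krt19 did not differ beyond their spread. In these libraries 55.4% of Krt19 TPM lay in the noncoding transcript Krt19-203. Epcam had 43.4 ± 1.695 TPM there and Cldn7 24.5 ± 1.176. The desmosomal cadherins were low in both groups, with Dsc2 at 5.86 ± 0.797 and 9.85 ± 0.065 TPM and Dsg2 at 2.44 ± 0.063 and 2.43 ± 0.094 TPM.

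Genes of related function outside the set were counted in the same way, beside 29.2% called over all tested genes (14.0% higher, 15.2% lower). The share called was 64.3% for other junction and polarity genes, 37.5% for other keratins and plakins and 54.5% for other surface genes. It was 69.2% for the transcription and splicing factors and 46.2% for the cadherin switch and mesenchymal genes. These lists were also chosen with earlier results of these data known. Of 42 tested genes of other junction and polarity proteins (55 listed), 16 rose, 11 fell and 15 were not called, with a median log2 fold change of 0.01. Crb2, another gene of the Crumbs family, had 24.4 ± 0.660 CPM with and 49.8 ± 1.46 CPM without, a 2.04-fold rise (edgeR adjusted p = 1.54e-08), against the fall of Crb3. The actin linker Vcl rose 1.52-fold and the junctional scaffold Amot 1.60-fold. Cldn11 fell 3.85-fold, from 30.4 ± 2.43 to 7.95 ± 0.691 CPM (edgeR adjusted p = 1.60e-09), a larger fold than that of any claudin of the set, though the difference between them was not tested. Ildr1, of the tricellular junction, fell 3.54-fold at 13 to 74 reads a library, and the plakin Ppl fell 1.97-fold.

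Of 8 tested other keratins and plakins (16 listed), 2 rose, 1 fell and 5 were not called. The cytolinker Macf1 rose 1.33-fold, Krt20 rose 1.73-fold at 13 to 50 reads a library, and Eppk1 fell 1.68-fold. The Krt20 call was lost without the library lacking Activin A replicate 2 (adjusted p = 0.0676), with DESeq2 (0.0705), with the length offset (0.0658) and on log2(TPM + 0.1) (0.0542). The Macf1 call was lost on TPM (log2 difference 0.21, limma adjusted p = 0.132), and that of Eppk1 on log2(TPM + 0.1) (limma adjusted p = 0.0587). Among other epithelial surface genes, 5 of 11 tested fell, 1 rose and 5 were not called. Cdh3, which encodes P-cadherin, fell 2.54-fold, Bspry fell 2.62-fold and Mal2, a protein of apical transport, fell 5.60-fold at 6 to 43 reads. Myo5b, a motor that works with Rab11 family GTPases, rose 2.02-fold at 13 to 69 reads, a call that was lost on TPM (limma adjusted p = 0.0701) and with the length offset (edgeR adjusted p = 0.0657).

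Of 13 tested epithelial transcription and splicing factors (16 listed), 6 fell, 3 rose and 4 were not called, with a median log2 fold change of -0.42. Esrp1, a splicing regulator of epithelial isoforms, fell 2.00-fold from 34.0 ± 0.586 to 17.0 ± 0.844 CPM (edgeR adjusted p = 9.08e-08). The grainyhead factor Grhl3 fell 2.06-fold at 28 to 95 reads. Tfap2c rose 1.45-fold, Klf4 1.28-fold and Klf5 1.26-fold. The Tfap2c call was lost on TPM (log2 difference 0.25, limma adjusted p = 0.439) and with the length offset (edgeR adjusted p = 0.377), and the Klf5 call was also lost on TPM (limma adjusted p = 0.144). The Klf5 call was lost on leaving out with Activin A replicate 1 or 3 or any 1 library without Activin A (adjusted p 0.0804 to 0.150).

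Of 13 tested cadherin switch and mesenchymal genes (14 listed), 5 rose, 1 fell and 7 were not called. Cdh2, which encodes N-cadherin, had 40.3, 37.0 and 44.4 CPM with Activin A and 76.4, 77.75 and 75.8 CPM without. This 1.90-fold rise (edgeR adjusted p = 7.59e-08) stood beside the fall of Cdh1. Zeb2, a repressor that binds E-boxes, had 24.6 ± 1.74 CPM with and 52.5 ± 0.333 CPM without, a 2.14-fold rise (edgeR adjusted p = 1.50e-08), a call that was lost on TPM (limma adjusted p = 0.273). Snai2 rose 1.91-fold, from 5.39 ± 0.171 to 10.2 ± 0.389 CPM. Vim, which encodes vimentin, fell 1.179-fold, a call that was lost on TPM (limma adjusted p = 0.0562), and Zeb1 (edgeR adjusted p = 0.507) and Snai1 (edgeR adjusted p = 0.114) were not called.

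In bulk RNA, fewer cells of a type and less RNA per cell cannot be told apart, so markers of the cell types that the cultures could hold were set beside these results. Over all tested genes 29.2% were called (14.0% higher, 15.2% lower), against 83.3% of the epiblast and 61.1% of the feeder markers. Of 12 primed epiblast markers, all tested, 8 fell, 2 rose and 2 were not called, and their summed TPM was 716 to 742 with Activin A and 411 to 446 without. None of them was at 0 reads, and Pou5f1, the pluripotency factor OCT4, was 374 CPM with Activin A and 121 CPM without. The 2 that rose were Sox2, from 82.35 to 109.6 CPM, and Lin28a, from 337.6 to 536.7 CPM. Sall4 and Pou3f1 were not called. Of 18 feeder fibroblast markers, all tested, 5 rose, 6 fell and 7 were not called, with a summed TPM of 694 to 815 with and 1067 to 1090.0 without. Most of that sum was Tagln, at a mean of 512.8 TPM with and 742.1 TPM without, and Acta2 had 68.3 and 167.4 TPM. The sum therefore follows few of the markers. None of the markers was at 0 reads. Acta2 rose 2.42-fold and Col3a1 fell 2.31-fold, a pair named after their values were seen. The part of feeder RNA in the results was not tested. As background, fibroblasts also express Cdh2, Snai2, Vim and Vcl.

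Of 11 surface ectoderm markers, 6 were tested, 4 of which fell and 2 of which were not called, with a summed TPM of 31.6 to 37.8 with Activin A and 24.8 to 27.7 without. The basal keratins Krt5 and Krt14 had 0 to 3 and 0 to 1 reads a library, and Dlx5 had none in any. Of 10 trophoblast markers, 6 were tested, with 3 higher and 1 lower and a summed TPM of 8.81 to 15.4 with and 8.92 to 12.8 without; Prl3d1 had no reads and Cdx2 had 0 to 2. This list holds Krt7, itself a member of the set, and Tfap2c. Of 14 endoderm markers, 5 were tested, with 3 higher and 1 lower and a summed TPM of 10.7 to 11.4 with and 14.65 to 16.8 without. Most of that sum was Dab2, at a mean of 8.91 TPM with and 12.7 TPM without. Ttr had no reads, and Foxa2, Gata4 and Sox17 had 0 to 7. Among tested markers, 66.7% of surface ectoderm, 66.7% of trophoblast and 80% of endoderm markers were called, against 29.2% of all tested genes. The part of such cells in the keratin results was not tested.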

How the data were processed

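RNA of 6 mouse epiblast stem cell libraries (stranded poly(A) kit, per the labels' protocols) was measured as 2 groups of 3, grouped by titles and genotype labels. The deposited files hold, per the file headers, an estimated count of reads, a TPM value and 2 transcript lengths for each of 133618 transcripts in salmon's format. The deposited estimated counts are not normalized, and the deposited TPM values are scaled by length and library total by the authors. Per the submitters' processing notes the tools were Salmon, DESeq2 and edgeR, with no versions. Build, annotation and use of strand: not given in the sources used here.

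Transcripts were matched to GENCODE M21 (GRCm38) with the version ignored; 219 did not match, held 0.131% to 0.149% of reads and were left out. Estimated counts were summed per gene and rounded, filtered with filterByExpr (minimum count 10, minimum total 15), scaled by TMM and tested with edgeR 4.0.16 in R 4.3.3 (robust quasi-likelihood F test, no covariate, Benjamini-Hochberg over all tested genes, threshold 0.05). SE is the log2 fold change over the square root of F, and intervals are 95%. Totals of estimated reads for replicates 1 to 3 were 16350923, 13649370 and 9946521 (with Activin A) and 14228036, 14992042 and 13567995 (without), which limits the precision of genes with few reads. No 2 libraries matched within sampling noise (chi-square per degree of freedom 1.82 to 17.1). The fit was tested on simulated data.

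The 36 genes and all lists were chosen with earlier results of these data known. Genes called with at least 1.5-fold change and the gene of highest mean TPM in each role group are given library by library. From each list of related genes up to 3 called genes of smallest p in each direction are named, and transcript shares where at least 2 transcripts held 20% or more and 1 differed by 10 points or more. A result among the named genes is not reported here. Zeb1, Snai1 and the markers with values were chosen outside this rule, after their values were seen. Alternatives were DESeq2 1.42.0, scaling by RLE or by the upper quartile, limma-trend (limma 3.58.1) on log2(TPM + 1) and log2(TPM + 0.1), no filter, a filter of 1 CPM, protein-coding genes only, an offset of transcript length, a replicate block, and each library left out. Added after seeing the data were both doubted libraries left out (with Activin A replicate 3, without Activin A replicate 1), and removal of each library's GC and length trend (mgcv 1.9.3) with and without the block. Promoter windows are RefSeq's, on GRCm38.p6.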

Additional observations from a re-analysis of the deposited data

How the results depend on the processing

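Counts of the 36 genes that rose and fell were 13 and 17 in the main analysis and in the analyses with RLE scaling, no filter, a filter of 1 CPM and protein-coding genes only; they were 11 and 17 with upper-quartile scaling, 12 and 17 with DESeq2 and 14 and 17 after removal of the GC and length trend, with Ctnnb1 the added rise. With log2(TPM + 1), 4 rose and 11 fell, and 1559 genes were called in all against 4505; with log2(TPM + 0.1), 4 rose and 11 fell, of 1504 called. With the transcript length offset 7 rose and 12 fell, of 2086 called. Jup turned in sign under these 3 settings, to log2 differences of 0.14 (0.1373), 0.14 (0.141) and 0.12, and Pard3 with the length offset, to -0.0032. Leaving out each library in turn gave 9 to 13 genes that rose and 17 to 18 that fell, of 3246 to 5689 called in all, the arms of 2 libraries sharing the spread of all. Without both doubted libraries 12 rose and 19 fell, Krt18 and Pkp3 being the added falls (adjusted p = 0.0110 and 0.0211) and Cgn the lost rise (adjusted p = 0.0866). Leaving out each library, the difference in the share of Crb3-202 ran from -28.3 to 7.28 percentage points (main -10.1), reversed without the library lacking Activin A replicate 2; for the other 7 genes with named shares it kept its sign. Same-numbered libraries had correlations of -0.0249, -0.0521 and -0.057 of their deviations from the group means. These values show no shared replicate effect, but they cannot show that the samples were unpaired. With the replicate block 13 genes rose and 17 fell, with 2125 higher and 2297 lower over all genes; with the block after removal of that trend, 14 and 17. Genes under about 100 reads a library (Marveld3, Pkp3, Krt7, Krt20, Mal2, Ildr1, Myo5b and Grhl3 among those named) have wide errors. The causes of the changes with TPM and the length offset were not tested.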
